A study of Mus musculus with 6 samples.

Results

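The matrix metalloproteinases (Mmp genes) and the ADAMTS proteases (Adamts genes) are the main zinc-dependent enzymes that cut extracellular matrix. They were followed here in primary mouse myoblasts, the precursors of muscle fibres, after 24 hours of differentiation. Cultures with and without an active form of beta-catenin, the nuclear effector of canonical Wnt signalling, were compared. The members were set by a rule on names, chosen with earlier results of these data known. It took every gene of the array table whose symbol is Mmp followed by a number and an optional letter, or Adamts followed by a number. This gave 40 genes, 22 Mmp and 18 Adamts, of 23279 named genes. Their symbols and Entrez gene numbers all matched the RefSeq gene table (40 of 40).

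All cultures had 1 genotype. They came from limb muscles of C57bl6N mice that carried Pax7-CreERT2, a Cre recombinase made in Pax7-positive cells and switched on by 4-OH tamoxifen, and 1 beta-catenin allele with loxP sites around exon 3, the exon whose loss keeps the protein from being degraded. The cells were kept for 5 passages in Ham F10 (20% FBS, with 2 ng/ml of bFGF), then differentiated for 24 hours in DMEM with 2% HS. The activated group (3 cultures) received 4-OH tamoxifen in ethanol, and the control group (3 cultures) received ethanol alone. Cells without Pax7-driven Cre would not recombine, and the drug was given to the activated group only, so its own action and that of beta-catenin cannot be told apart. Values are log2 expression from 6 arrays, 1 per culture, and a difference of 1 is a doubling.

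Mmp enzymes are made as inactive precursors and between them cut collagens, gelatin, laminin and fibronectin. Some are secreted and others, the membrane-type enzymes, stay on the cell surface, where Mmp14 also activates the Mmp2 precursor. Adamts enzymes carry thrombospondin repeats that hold them in the matrix, and fall into proteoglycan-cleaving enzymes, procollagen-processing enzymes and others. In muscle, both families are known for opening the matrix around myoblasts as they migrate, align and fuse. Tissue inhibitors of metalloproteinases (Timp proteins) block both.

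The 6 arrays had medians of 4.08 to 4.37 and correlated with each other at 0.862 to 0.962 across genes, lowest between control replicate 3 and activated replicate 2. The myoblast label fits its markers: 12 of 14 myoblast and myocyte markers lay above the range of olfactory receptor genes in all 6 arrays. In activated cultures 11 of the 14 were higher in the mean and 3 lower, with a median difference of 0.92, and 6 were higher and 1 lower at an unadjusted p under 0.05 (limma); 0 passed after adjustment. Among them the differentiation genes Myog, Des and Myh3 had differences of 2.22, 1.56 and 1.32. The 3 lower were Vcam1 (-1.38, without overlap of the groups), Pax7 (-0.60) and the differentiation gene Ckm (-0.27). The olfactory receptor range was used because the table has no detection calls. It ends in each array at the 95th percentile of 1083 olfactory receptor genes (3.86 to 4.70), which muscle cells are not expected to express. This range is a stand-in for background and not a detection test. Most markers of fibroblasts, leukocytes and endothelium were lower in the mean in activated cultures, as were 59.7% of all genes in these values. This held for 12 of 14 fibroblast markers (array means 4.18 to 4.34 in control and 3.81 to 4.29 in activated cultures), 14 of 15 leukocyte markers (3.36 to 3.89 and 3.17 to 3.48) and 10 of 12 endothelial markers (3.21 to 3.50 and 2.99 to 3.24). Smooth muscle and pericyte markers overlapped (5.17 to 5.29 and 5.13 to 5.42). Of these lists, 7 fibroblast, 10 leukocyte, 10 endothelial and 3 smooth muscle markers lay in that range or below it in every array. Fewer cells of a type and less RNA per cell cannot be told apart in such bulk samples, and the part of these markers, those of myoblasts and myocytes included, in the results was not tested.

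The question put to the data was which of these proteases differ between activated and control cultures. A pair of aggrecanase genes, Adamts5 and Adamts1, was higher in activated cultures, 4.08-fold and 3.17-fold, by a similar amount in each of the 3 numbered pairs of cultures. In both genes control replicate 3 lay within the olfactory receptor range, so the folds are taken in part against a level near background. Adamts7 was lower, by 0.96 on the log2 scale. Of the 22 Mmp genes, 14 lay within the olfactory receptor range on every array, and 1 had an unadjusted p under 0.05. In limma's test without pairing, 0 of 40 members passed an adjusted p of 0.05 (background 0%, 0 of 23279 genes). At an unadjusted p under 0.05 there were 5 members, 3 higher and 2 lower, or 12.5% against 7.86% of all genes (4.44% higher and 3.42% lower). There were 3 without control replicate 1 (1399 of 23279 genes) and 3 without activated replicate 1 (1587 of 23279 genes). The labels state no pairing. The replicate numbers were taken as pairs by the check given with the methods, whose correlations unequal spread of the arrays can also raise. With the replicate number as a block, 9 members reached that level (22.5% against 16.6% of all genes): 4 higher (9.63% of all genes) and 5 lower (7.01%). Without pair 1 there were 3 (2822 of 23279 genes). Adamts5 passed after adjustment over all genes (1 of 40 members; background 0.133%, 31 of 23279 genes). This call ended when the deposited values were quantile-normalized (limma with the block, adjusted p = 0.0671).

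**Figure D1:**
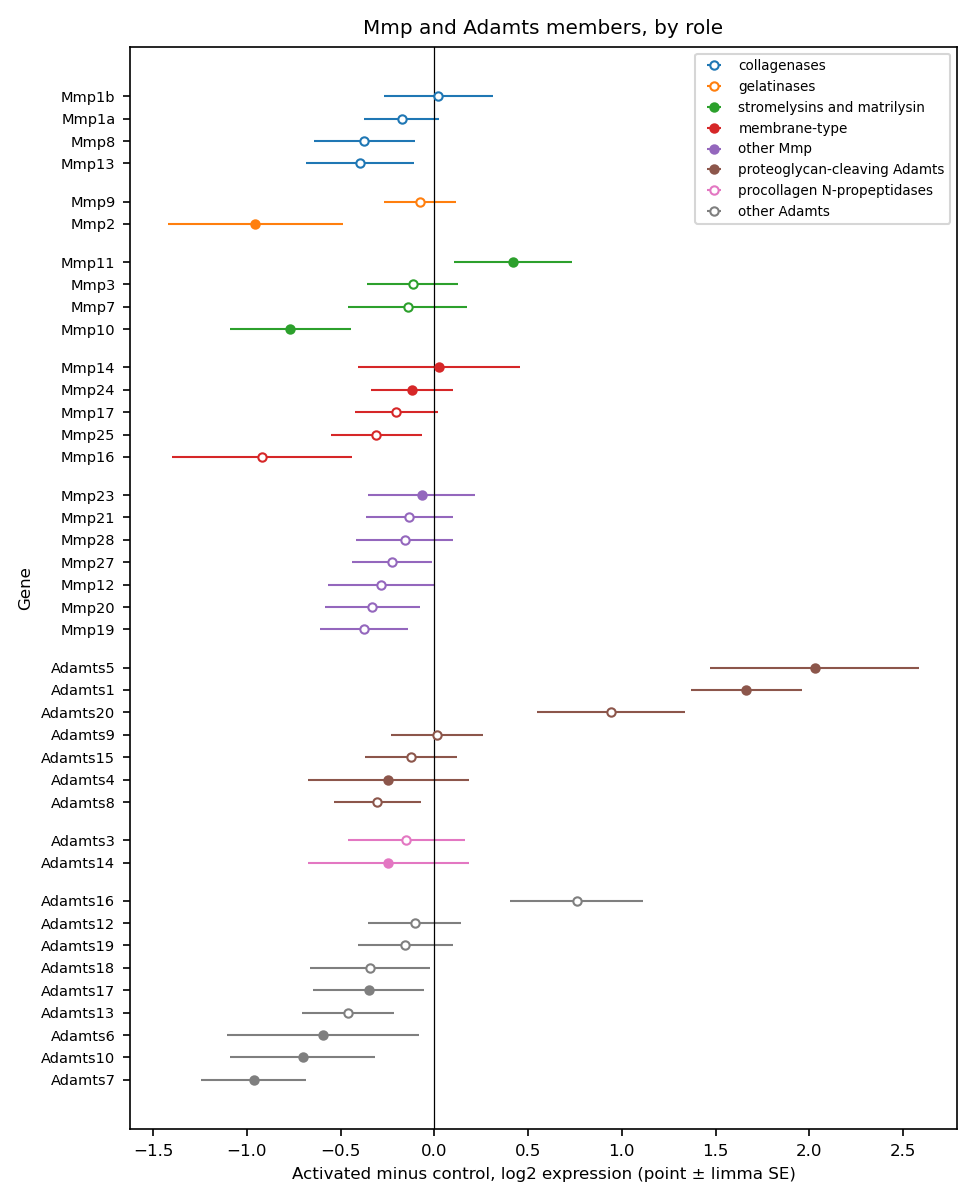
Difference between activated and control cultures (log2 expression, activated minus control) for the 40 members grouped by role; points are means over 3 arrays a group and bars are limma standard errors. Filled points mark the 14 members above the olfactory receptor range in all arrays of at least 1 group. Adamts5 (2.03) and Adamts1 (1.66) stand to the right, and Adamts7 (-0.96), Mmp2 (-0.96) and Mmp16 (-0.92) to the left.

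Adamts5, the main aggrecan- and versican-cleaving enzyme of the family, had values of 4.73, 4.68 and 3.04 on the control arrays (replicates 1, 2 and 3, as in all that follows) against 6.61, 6.64 and 5.28 on the activated arrays. Every activated array lay above every control array, and the replicates numbered 3 were the lowest of both groups. Control replicate 3 lay within the olfactory receptor range, and control replicate 1 was just above its end (4.73 against 4.70). The difference was 2.03 ± 0.56 (SE, n = 3 per group; limma, adjusted p = 0.402). With the block the standard error dropped to 0.19, since the differences within the pairs were 1.88, 1.97 and 2.24, and the gene rose at an adjusted p of 0.0479 (limma). Leaving out a pair from the blocked fit gave adjusted p-values of 0.262 (pair 1 out), 0.193 (pair 2 out) and 0.0182 (pair 3 out), with differences of 2.10, 2.06 and 1.92.

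Adamts1, which also cleaves aggrecan and versican, was at 5.13, 5.06 and 4.60 in control and at 6.75, 6.94 and 6.08 in activated cultures. The groups did not overlap, and the gap between them, from 5.13 to 6.08, was wider than the range within either group. Control replicate 3 lay just within the olfactory receptor range, which ended at 4.66 in that array. The difference was 1.66 ± 0.30 (SE; limma, adjusted p = 0.231, and 0.0539 with the block), and it was 1.62, 1.89 and 1.49 within the pairs. It lay between 1.49 and 1.92 over the 16 alternatives, which include leaving out arrays or pairs. Some of these, such as the block alone, cannot move the difference. With the block but without pair 3, Adamts1 passed as well (adjusted p = 0.0248).

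Adamts1 and Adamts5 are next to each other in the RefSeq gene order (GRCm38.p6), with 0 protein-coding genes between them. A second pair of neighbours, the proteoglycan-cleaving Adamts8 and Adamts15, differed by -0.30 ± 0.23 and -0.12 ± 0.25 (SE) and lay within the olfactory receptor range in all 6 arrays. The 250 bases before the annotated start of Adamts1, a promoter of one of the most changed members, are on the minus strand of chr16:85803114-85803363 (RefSeq, GRCm38.p6). They were searched on both strands for AP-1 (TGANTCA), TCF/LEF (CTTTGAT) and E-box (CAGCTG) motifs, bound by Fos and Jun proteins, by the DNA-binding partners of beta-catenin and by myogenic factors, and held none of these letters, so no base is in capitals.
Adamts1: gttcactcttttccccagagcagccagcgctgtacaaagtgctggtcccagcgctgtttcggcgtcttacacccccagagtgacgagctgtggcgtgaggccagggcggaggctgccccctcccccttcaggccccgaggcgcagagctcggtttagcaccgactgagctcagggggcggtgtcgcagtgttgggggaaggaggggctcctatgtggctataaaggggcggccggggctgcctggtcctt

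Adamts20, a further versican-cleaving enzyme, was at 3.70, 3.20 and 3.19 in control and at 4.56, 4.90 and 3.46 in activated cultures. Activated replicates 1 and 2 were high and exceeded the olfactory receptor range, while activated replicate 3 lay among the controls. The difference was 0.94 ± 0.39 (SE; limma, adjusted p = 0.626), 1.37 without activated replicate 3 and 0.65 without activated replicate 2. With 1 array left out, the unadjusted p of Adamts20, 0.0457 (limma), stayed under 0.05 only without activated replicate 3. It was otherwise 0.0507 to 0.152. The other proteoglycan-cleaving members did not follow. Adamts4, an aggrecanase above the olfactory receptor range in all 6 arrays, had means of 5.63 ± 0.56 (control; SD, n = 3) and 5.38 ± 0.71 (activated). Adamts9 had 3.50 ± 0.10 and 3.51 ± 0.35, in that range in every array. Of the 7 proteoglycan-cleaving members, 3 thus had an unadjusted p under 0.05, all higher (4.44% of all genes). Of the other 11 Adamts genes, 1 was higher and 10 were lower in the mean (59.7% of all genes were lower).

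Among those 11, Adamts7, which degrades cartilage oligomeric matrix protein, was at 5.38, 5.63 and 6.23 in control and at 4.77, 4.58 and 4.99 in activated cultures. The groups did not overlap, and all 6 arrays exceeded the olfactory receptor range. The difference was -0.96 ± 0.28 (SE; limma, adjusted p = 0.432, and 0.126 with the block), with pair differences of -0.60, -1.04 and -1.24. Over the 16 alternatives, some of which cannot move the difference, it lay between -1.15 and -0.72.

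Adamts10 and Adamts6, enzymes associated with fibrillin microfibrils, were lower in all 3 pairs. Adamts10 was at 5.02, 4.79 and 6.22 in control and at 4.66, 4.42 and 4.84 in activated cultures, and 1 array, control replicate 3, set most of the difference. It was -0.70 ± 0.39 (SE; limma, adjusted p = 0.697) and -0.26 without control replicate 3. Adamts6 was at 5.62, 5.17 and 6.80 in control and at 4.84, 4.85 and 6.12 in activated cultures, with the replicates numbered 3 high in both groups. Its difference was -0.59 ± 0.51 (SE; limma, adjusted p = 0.767), -0.12 without control replicate 3, and with the block its unadjusted p was 0.0254 (limma).

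Adamts16 was at 2.58, 2.99 and 3.41 in control and at 3.70, 3.21 and 4.35 in activated cultures. The groups overlapped, though each activated array exceeded the control of its number, by 1.12, 0.22 and 0.94. Only activated replicate 3 lay above the olfactory receptor range, and without it the difference went from 0.76 ± 0.36 (SE) to 0.46 (limma, unadjusted p = 0.0682 and 0.227). Adamts13, the protease of von Willebrand factor, was at 3.99, 3.52 and 3.80 in control and at 3.45, 3.00 and 3.48 in activated cultures. These groups did not overlap, but all 6 arrays were within the olfactory receptor range, and the difference of -0.46 shrank to -0.28 after quantile normalization. The procollagen-processing Adamts14 and Adamts3 had differences of -0.24 ± 0.43 and -0.15 ± 0.31 (SE). Only Adamts14 lay above the olfactory receptor range in every array.

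**Figure D2:**
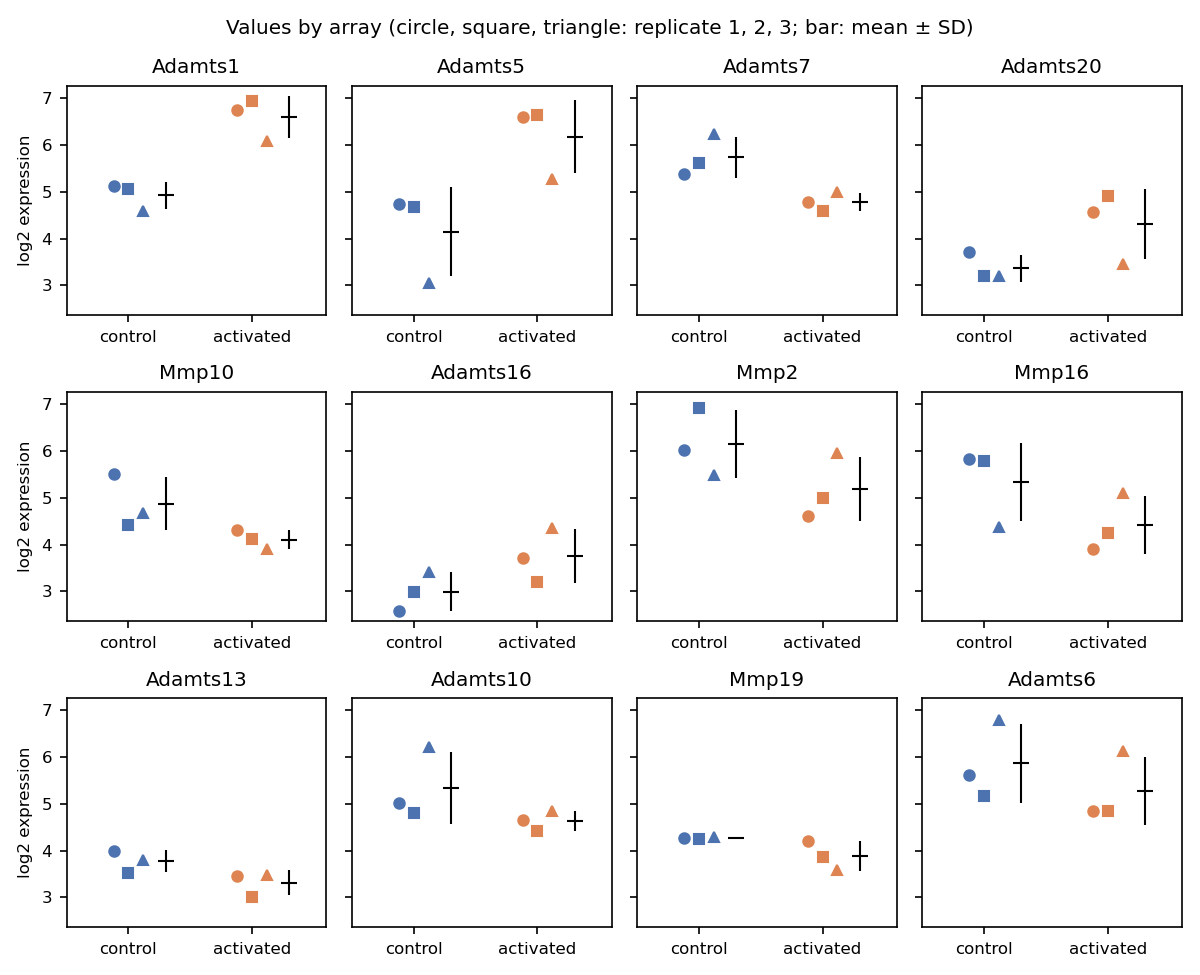
Log2 expression on each array for the 12 members with an unadjusted p under 0.05 in either fit, groups that do not overlap, or a difference among the 10 largest; circles, squares and triangles are replicates 1, 2 and 3, and bars are mean ± SD. Adamts1 and Adamts5 separate upward and Adamts7 downward, while the activated triangles of Mmp2 and Mmp16 (5.95 and 5.10) lie within the control range.

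The Mmp genes gave 1 member at an unadjusted p under 0.05, or 4.55% of 22, against 7.86% of all genes. That member was Mmp10, stromelysin-2, at 5.52, 4.42 and 4.68 in control and at 4.31, 4.11 and 3.90 in activated cultures. The groups did not overlap, by a margin of 4.31 against 4.42, and control replicate 1 was the highest array. Activated replicate 3 lay within the olfactory receptor range. The difference was -0.77 ± 0.32 (SE; limma, adjusted p = 0.628) and -0.45 without control replicate 1. Mmp19 was the other Mmp gene whose groups did not overlap, with 4.25 the lowest control and 4.21 the highest activated value. Its difference of -0.38 ± 0.23 (SE) became -0.22 after quantile normalization. Mmp19 exceeded the olfactory receptor range in only 1 control array and 2 activated arrays.

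Mmp2, the gelatinase that degrades basement membrane collagen, was at 6.03, 6.93 and 5.48 in control and at 4.62, 5.01 and 5.95 in activated cultures. The groups overlapped because activated replicate 3 was high: in pairs 1 and 2 the differences were -1.41 and -1.92, and in pair 3 it was 0.47. Over all 6 arrays the difference was -0.96 ± 0.47 (SE; limma, adjusted p = 0.672), and -0.56 without control replicate 2. The membrane-type Mmp16 had the same layout, at 5.84, 5.80 and 4.37 in control and at 3.90, 4.25 and 5.10 in activated cultures, with pair differences of -1.94, -1.54 and 0.73. Its overall difference was -0.92 ± 0.48 (SE; limma, adjusted p = 0.692), -1.40 without control replicate 3 and -0.66 without activated replicate 1. Control replicate 3 and activated replicate 1 of Mmp16 lay within the olfactory receptor range. With the block but without pair 3, both passed over all genes, Mmp2 at -1.67 (limma, adjusted p = 0.0328) and Mmp16 at -1.74 (0.0269), in a fit of 2 pairs in which 501 genes passed.

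Pair 3 also stood apart for Mmp14 and Mmp11, which were singled out after their values were seen. Mmp14, the membrane-type collagenase that activates Mmp2, was at 7.70, 8.15 and 7.57 in control and at 7.13, 7.56 and 8.79 in activated cultures. Its pair differences were -0.56, -0.59 and 1.23, and the mean difference of 0.02 turned to -0.28 after quantile normalization and to -0.46 without activated replicate 3. Mmp11, stromelysin-3, was at 5.49, 6.03 and 5.07 in control and at 5.59, 6.07 and 6.20 in activated cultures, with pair differences of 0.092, 0.033 and 1.14. Its mean difference of 0.42 was 0.19 without control replicate 3 and 0.67 without control replicate 2. Markers of other cell types, also singled out after their values were seen, differed in their layout. The fibroblast marker Smoc2 was at 6.46, 6.88 and 6.67 in control and at 4.56, 4.75 and 6.43 in activated cultures, lower in all 3 pairs without overlap, and so was Fbln1 (-1.11, -1.88 and -0.34). The fibroblast marker Thy1 went the other way, with pair differences of -0.01, 1.35 and 2.17. Of the smooth muscle and pericyte markers, Rgs5 had -2.45, -2.97 and 0.07, Abcc9 had 2.38, 1.58 and -0.19, Acta2 had 0.44, 1.03 and 1.78, and Tagln had 0.87, 0.37 and 0.81. Over all 14 fibroblast markers the array means were 4.34, 4.26 and 4.18 in control and 3.91, 3.81 and 4.29 in activated cultures, so activated replicate 3 alone of the activated arrays lay within the control range. The part of these markers in the Mmp2, Mmp14 and Mmp16 values was not tested.

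**Figure D3:**
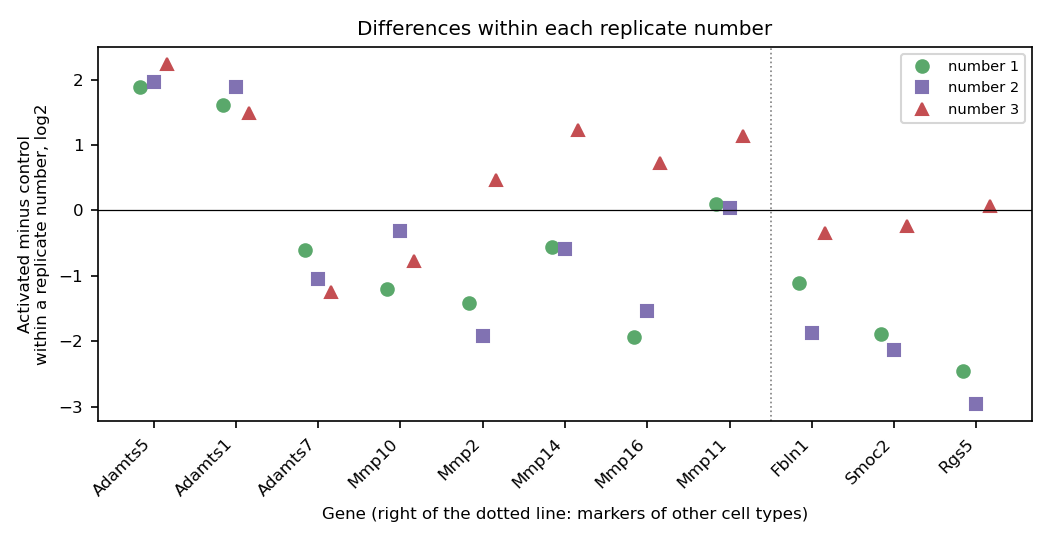
Activated minus control within each replicate number (log2 expression) for 8 members and 3 markers of other cell types (Fbln1, Smoc2 and Rgs5, singled out after their values were seen); each symbol is 1 pair of arrays. The 3 pairs agree in sign for Adamts5, Adamts1, Adamts7 and Mmp10, while pair 3 is above 0 for Mmp2 (0.47), Mmp14 (1.23) and Mmp16 (0.73), where pairs 1 and 2 are below it.

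The gelatinase Mmp9, named for its role, had means of 3.28 ± 0.02 (control; SD, n = 3) and 3.20 ± 0.06 (activated), below the end of the olfactory receptor range in all 6 arrays. The same was true of 22 of the 40 members (55%, against 41.4% of all genes), 14 Mmp and 8 Adamts genes. These included all 4 collagenase genes (Mmp1a, Mmp1b, Mmp8 and Mmp13). In all 6 arrays 10 members exceeded that range, namely Mmp2, Mmp11, Mmp14, Mmp23, Adamts4, Adamts6, Adamts7, Adamts10, Adamts14 and Adamts17. The 28 members not singled out by the rule had differences from -0.40 to 0.42, none with an unadjusted p under 0.05 in either fit. Their smallest adjusted p was 0.748 without pairing and 0.404 with the block (limma).

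In the deposited values 32 of 40 members were lower in the mean in activated cultures (80.0%), with a median difference of -0.19. Over all genes 59.7% were lower, with a median of -0.08. This tilt moved with the scaling of the arrays: 25 members were lower after quantile normalization, 24 after cyclic loess and 26 after median centring. The medians were then -0.11, -0.06 and -0.06. In 6 members the groups did not overlap, 2 higher and 4 lower, or 15% against 12.8% of all genes (5.4% higher and 7.4% lower). With 1 array fewer the groups separate more easily in all genes. The count of members was then 16 without control replicate 2 (40% against 34.5% of all genes) and 10 without control replicate 3 (25% against 19.7%). It was 13 without activated replicate 1 (32.5% against 25.5%) and 15 without activated replicate 3 (37.5% against 25%). Without control replicate 1 it was 7 (17.5% against 19.3%) and without activated replicate 2 it was 8 (20% against 16.7%).

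A run of 10 Mmp genes lies together on mouse chromosome 9 with no other protein-coding gene between them in the RefSeq table: Mmp13, Mmp12, Mmp1b, Mmp3, Mmp1a, Mmp10, Mmp8, Mmp27, Mmp20 and Mmp7. Apart from Mmp10, the 9 others lay below the end of the olfactory receptor range in every array. The median difference of the run was -0.25, with 9 genes lower and 1 higher (7 lower after quantile normalization or cyclic loess). A shared sequence feature sets their promoters apart by description: 8 of the 10 have an AP-1 motif (TGANTCA) that begins 35 to 95 bases before an annotated start, in 6 of them as TGAGTCA. Counted by promoter, since some genes have more than 1, it was in 8 of the run's 12, in 0 of the 17 of other members and in 6.75% of all 32851. The stretches of 41 bases around each match are cut with 17 bases on each side, so the motif has the same place in each by construction. They are printed here 5′ to 3′ on the gene's strand, with the motif in capitals (RefSeq, GRCm38.p6).
Mmp13: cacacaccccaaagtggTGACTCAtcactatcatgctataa
Mmp12: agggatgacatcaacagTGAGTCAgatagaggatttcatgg
Mmp1b: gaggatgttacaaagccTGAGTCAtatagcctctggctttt
Mmp3: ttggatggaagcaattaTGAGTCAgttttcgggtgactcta
Mmp1a: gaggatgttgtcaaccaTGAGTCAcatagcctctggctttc
Mmp10: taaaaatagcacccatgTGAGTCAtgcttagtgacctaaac
Mmp20: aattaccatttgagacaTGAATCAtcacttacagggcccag
Mmp7: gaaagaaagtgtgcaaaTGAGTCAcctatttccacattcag
In the order shown they lie at chr9:7272462-7272502, chr9:7347313-7347353, chr9:7388096-7388136 (minus strand), chr9:7445759-7445799, chr9:7464051-7464091, chr9:7502262-7502302, chr9:7628119-7628159 and chr9:7692010-7692050 (plus strand otherwise). The TCF/LEF letters CTTTGAT, searched on both strands, were in 1 of the 29 member promoters, that of Mmp7, and in 3.21% of all promoters. The E-box CAGCTG was in 4 (Adamts9, Adamts12, Adamts17 and Mmp25), against 13% of all. None of these matches overlapped another motif, and 26 of the 40 members had a promoter in the table.

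**Figure D4:**
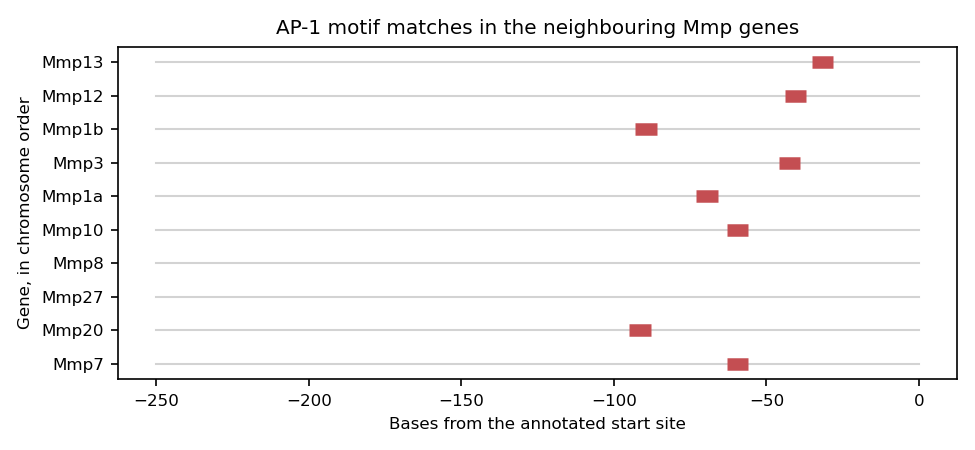
Position of the AP-1 motif (red) in the 250 bases before the annotated start for the 10 neighbouring Mmp genes, in chromosome order; the horizontal axis is distance from the start in bases. In 8 genes the match begins between 35 and 95 bases before the start, and Mmp8 and Mmp27 have none.

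Of 18 measured transcription factors known from metalloproteinase promoters, 3 had an unadjusted p under 0.05 without pairing, all higher in activated cultures (4.44% of all genes). With the block 4 were higher and 4 lower at that level (9.63% and 7.01% of all genes). The AP-1 subunit gene Fosl2 was at 4.94, 5.18 and 5.59 in control and at 5.87, 6.77 and 7.04 in activated cultures, without overlap (difference 1.32 ± 0.35, SE; limma, adjusted p = 0.39). A second AP-1 subunit gene, Junb, differed by 0.72 ± 0.25 (SE), and Stat3, a mediator of cytokine signals, by 1.24 ± 0.26. Neither passed after adjustment, with or without the block. The other AP-1 subunit genes of the list, named for their role, were Fos (0.40), Fosb (0.36), Jun (0.20), Fosl1 (-0.08) and Jund (-0.007). None of these had an unadjusted p under 0.05 in either fit (limma).

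The direct inhibitors were measured beside the proteases. Timp3, which binds to matrix and blocks aggrecanases including Adamts5, was at 4.63, 4.12 and 3.34 in control and at 7.74, 8.74 and 8.82 in activated cultures. The groups were far apart, with a difference of 4.40 ± 0.42 (SE; limma, adjusted p = 0.0848, and 0.0507 with the block). Only 1 of its 3 control arrays lay above the olfactory receptor range, so the size of this difference is taken against a level near background. Timp1 was at 9.31, 9.57 and 8.93 in control and at 9.82, 10.78 and 10.79 in activated cultures, a difference of 1.19 ± 0.33 (SE; limma, adjusted p = 0.408), which was 0.77 after quantile normalization and 0.68 after cyclic loess. Timp2 differed by 1.58 ± 0.56 (SE), and by 0.88 without control replicate 3, whose value of 7.19 was the lowest. Timp4 had means of 3.11 ± 0.28 (control; SD, n = 3) and 2.99 ± 0.08 (activated), a difference of -0.12 whose sign changed with the scaling. In Timp1, Timp2 and Timp3 no control array reached an activated one, as in Adamts1 and Adamts5.

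**Figure D5:**
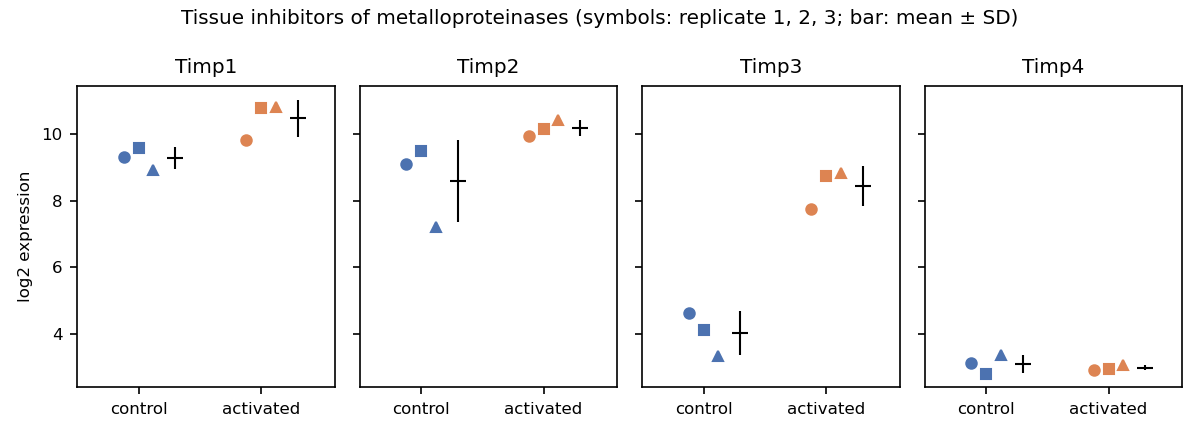
Log2 expression of the 4 Timp genes on each array; circles, squares and triangles are replicates 1, 2 and 3, and bars are mean ± SD. Timp3 goes from 4.03 ± 0.65 to 8.43 ± 0.60, Timp1 and Timp2 are separated by smaller gaps, and Timp4 overlaps.

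Further inhibitors and related proteins included Adamtsl3 and Adamtsl5, ADAMTS-like proteins that lack the protease domain. Adamtsl3 was lower, with a difference of -1.37 ± 0.36, and Adamtsl5 higher, by 0.88 ± 0.25 (SE). Of the 15 measured genes of this list, 4 were higher and 1 lower at an unadjusted p under 0.05, against 4.44% and 3.42% of all genes, the shares that hold for the next 3 lists too. Among 16 activators and cell-surface partners, 1 was higher and 1 lower at that level: Bsg, an inducer of Mmp production, differed by 1.07 ± 0.39 and the proprotein convertase Pcsk5 by -0.57 ± 0.22 (SE). Of 22 substrates, 1 was higher and 1 lower: Dag1, the dystroglycan gene, differed by 1.75 ± 0.61 (adjusted p = 0.0541 with the block, limma) and Ncan by -0.54 ± 0.20. Pcsk5 and Ncan lay within the olfactory receptor range in every array. Versican (Vcan), named for its role as the substrate of Adamts1, Adamts5 and Adamts20, had means of 8.10 ± 0.31 (control; SD, n = 3) and 7.89 ± 0.94 (activated). Of 18 related metalloproteinases, Adam, Bmp1 and Tll genes among them, 0 had an unadjusted p under 0.05 (limma; 7.86% of all genes), and 3 with the block (16.6% of all genes). No gene of these lists passed after adjustment over all genes in either fit.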

How the data were processed

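Per the submitters' processing notes, RMA and Partek were used, with no version or role given; the authors deposited log2 expression values per probe set. The array design is not given in the sources used here, and the table has no detection calls. Of 24479 probe sets, the platform annotation named 23281 with 1 symbol, 0 with several and 1198 with none; for 2 symbols with several probe sets the one with the highest mean was kept (23279 genes). On these log2 values a linear model with group alone was fitted (limma 3.58.1, R 4.3.3), with two-sided moderated tests and Benjamini-Hochberg adjustment over all genes, without a filter. The fit was tested on simulated data. Cultures are independent per the labels, their animals are not stated, and p-values measure the spread between 3 cultures a group, whose number limits the precision.

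Deviations from the group means correlated at 0.38, 0.49 and 0.45 within the arrays numbered 1, 2 and 3, all above 0.1, so the numbers in the titles were taken as pairs and the fit with a replicate block is given where it changes a call. Arrays also differed in spread (SD 1.72 to 2.13), which can raise such correlations.

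Members, lists and tests were chosen with earlier results of these data known. Members with an unadjusted p under 0.05 in either fit, groups that do not overlap, or a difference among the 10 largest are given by array; of partner lists, at most 4 genes with an unadjusted p under 0.05. The alternatives were quantile, cyclic loess and median scaling, the block, a filter on dim genes, a trended robust variance and leaving out each array; the block without each pair was added after seeing the data. Promoter sequences are from RefSeq (GRCm38.p6).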

Additional observations from a re-analysis of the deposited data

How the results depend on the processing

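The 12 members that the rule gives by array, Adamts1, Adamts5 and Adamts7 among them, and Mmp11 kept their sign in the 15 or 16 alternatives run for each, whereas Mmp14 did not. The block alone, the filter on dim genes and the trended robust variance leave each difference as it is, so they could not turn a sign. Timp4, at -0.12, turned to 0.0687 after quantile normalization (0.0687 with the replicate block as well), 0.0553 after cyclic loess and 0.0075 after median centring, and ran from -0.27 to 0.0084 when 1 array was left out (highest without control replicate 3). Mmp9, at -0.08, turned to 0.11 after quantile normalization (0.11 with the block), 0.11 after cyclic loess and 0.0502 after median centring. Mmp14, at 0.02, turned to -0.28 after quantile normalization (-0.28 with the block), -0.32 after cyclic loess, -0.03 and -0.09 without control replicates 1 and 3, -0.46 without activated replicate 3 (up to 0.37 without activated replicate 1) and -0.58 with the block without pair 3. The number of genes past an adjusted p of 0.05 was 0 without pairing, 31 with the replicate block, 0 with the block after quantile normalization, 0 to 28 when 1 array was left out (28 without activated replicate 3) and 0, 0 and 501 with the block without pair 1, 2 or 3. Of the 40 members, 5 had an unadjusted p under 0.05 (1830 of 23279 genes), and 9 with the block (3875 genes). There were 3 among the 15 members left by the filter on dim genes (1167 of 11674 genes) and 3 with the block without pair 1 (2822 genes). With 1 array left out, 3 to 6 members reached that level (907 to 3066 genes), 3 of them without control replicate 1 or activated replicate 1. The count of members without overlap went from 6 to between 7 and 16 when 1 array was left out, since fewer arrays separate more easily. The median difference of the members, -0.19, was -0.11 after quantile normalization, -0.0573 after cyclic loess, -0.0605 after median centring, -0.25 with the filter on dim genes and -0.31 to -0.13 when 1 array was left out. The cause of these shifts was not tested.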
